A study of Mus musculus with 12 samples.

Results

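The genes described here are 10 that encode subunits of the transcription factor NF-kB or proteins that it induces and that feed back on it: Nfkb1, Nfkb2, Rel, Relb, Nfkbia, Nfkbie, Nfkbiz, Tnfaip3, Traf1 and Birc3. They were taken by gene symbol from a table of 53762 symbols, all 10 were found, and all 10 were among the 16945 genes that passed the filter on low counts. RNA had been sequenced from mouse T cells labelled as coming from spleen, after co-culture with cells that the labels call Res. The Res partner cells carried either shFabp7, a short hairpin RNA against the fatty acid binding protein gene Fabp7, or a control, and the T cells were taken at 24 or 48 h. That gave 4 groups of 3 libraries, namely Res_shFabp7 at 24 h, Res_ctrl at 24 h, Res_shFabp7 at 48 h and Res_ctrl at 48 h, and no T cells without a partner were analysed here. The hairpin was in the partner cells, not in the T cells that were sequenced. The origin of the Res cells, the strain and age of the mice, the stimulus of the T cells and the way in which they were parted from the partner cells are not stated in the labels. The labels do not tell whether replicates are separate cultures or animals, so each p-value reflects the spread between these libraries alone, which may be technical.

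NF-kB is a dimer of Rel family proteins that waits in the cytoplasm, bound to inhibitors of the IkB family. In T cells the antigen receptor and receptors of the TNF family lead to the phosphorylation and loss of IkB, the dimer enters the nucleus, and it binds kB elements in the DNA. Among the genes it switches on are those of its own inhibitors and of several of its own subunits, so the pathway limits and renews itself.

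Libraries held 31952873 to 40638685 counts and no library matched another of its own group within counting noise. The members had 1798 to 34587 counts in a library, for which counting error alone is 2.36% to 0.538% of the value, and the spread between replicates was a coefficient of variation of 1.27% to 9.95% with a median of 3.5%. All 8 T cell markers examined, Cd3e and Trac among them, had at least 3239 counts in every library. Of the markers of other cells, some lists were low, with summed levels over the 12 libraries of 12.4 to 24.0 CPM (counts scaled to a common library size) for 8 B cell genes, against 2241 to 2541 CPM for the T cell genes. The 8 monocyte and macrophage genes summed to 9.77 to 14.99 CPM, and the 8 epithelial genes to 4.75 to 12.4 CPM. Others were higher, with the dendritic cell genes at 159 to 272 CPM (nearly all Ccl22), the NK cell genes at 147 to 175 CPM (mostly Eomes) and the stromal and endothelial genes at 70.3 to 120.1 CPM (mostly Pecam1). In bulk RNA, fewer cells of a type and less RNA per cell cannot be told apart.

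The sequences before the transcription starts are shown because the kB element is how these genes can answer to NF-kB. RefSeq promoter windows (build GRCm38.p6) were matched for 7 of the 10 genes, in 10 windows because Nfkb2 has 3 annotated starts and Tnfaip3 has 2. No window was matched for Nfkb1, Relb and Nfkbiz, so these were not searched. The 250 bases before each start were searched on both strands for the 10-letter kB consensus GGGRNNYYCC (R is A or G, Y is C or T, N is any base). Of the 10 windows 7, from 5 genes, held a match, where 7.25% of all 32841 windows of that length did. The 4 windows below are those before the first listed start of Nfkb2 and Tnfaip3 and before the starts of Rel and Nfkbia, read 5′ to 3′ along the gene, with matches to the consensus in capitals (neighbouring matches that overlap are in 1 run).

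Nfkb2, chr19:46304487-46304736, plus strand: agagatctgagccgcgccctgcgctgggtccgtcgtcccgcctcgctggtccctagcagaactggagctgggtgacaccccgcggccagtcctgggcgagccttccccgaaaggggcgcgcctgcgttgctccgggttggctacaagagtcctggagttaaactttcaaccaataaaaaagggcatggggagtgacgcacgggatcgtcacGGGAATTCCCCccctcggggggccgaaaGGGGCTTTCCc
Rel, chr11:23770970-23771219, minus strand: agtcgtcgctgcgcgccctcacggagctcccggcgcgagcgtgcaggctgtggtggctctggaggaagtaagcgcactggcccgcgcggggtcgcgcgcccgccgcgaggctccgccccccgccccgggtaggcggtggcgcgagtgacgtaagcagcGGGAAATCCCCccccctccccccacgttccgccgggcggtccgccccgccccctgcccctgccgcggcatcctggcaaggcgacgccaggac
Nfkbia, chr12:55492648-55492897, minus strand: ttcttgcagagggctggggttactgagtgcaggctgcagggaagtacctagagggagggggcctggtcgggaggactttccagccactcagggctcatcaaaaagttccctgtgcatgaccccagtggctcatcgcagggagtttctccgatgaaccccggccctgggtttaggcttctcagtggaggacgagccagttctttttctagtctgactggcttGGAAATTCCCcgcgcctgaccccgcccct
Tnfaip3, chr10:19015411-19015660, minus strand: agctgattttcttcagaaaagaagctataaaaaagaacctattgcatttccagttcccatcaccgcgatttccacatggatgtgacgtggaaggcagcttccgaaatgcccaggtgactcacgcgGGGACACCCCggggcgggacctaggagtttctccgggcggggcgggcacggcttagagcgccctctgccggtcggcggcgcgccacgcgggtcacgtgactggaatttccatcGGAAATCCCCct

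In Nfkb2 the matches lay 39 to 29 and 11 to 2 bases before the start, in Rel 92 to 82 bases, in Nfkbia 29 to 20 bases and in Tnfaip3 125 to 116 and 12 to 3 bases. The other Nfkb2 starts had 1 match each, 236 to 227 and 225 to 216 bases before them. Nfkbie had 1 match, 106 to 97 bases before its start. The windows of Traf1 and Birc3 and the other Tnfaip3 window held no full match to the consensus, and bases further away were not searched. The genes were chosen as known NF-kB genes, so the share of windows with a match is a description, and a match is not a shown binding site.

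**Figure D1:**
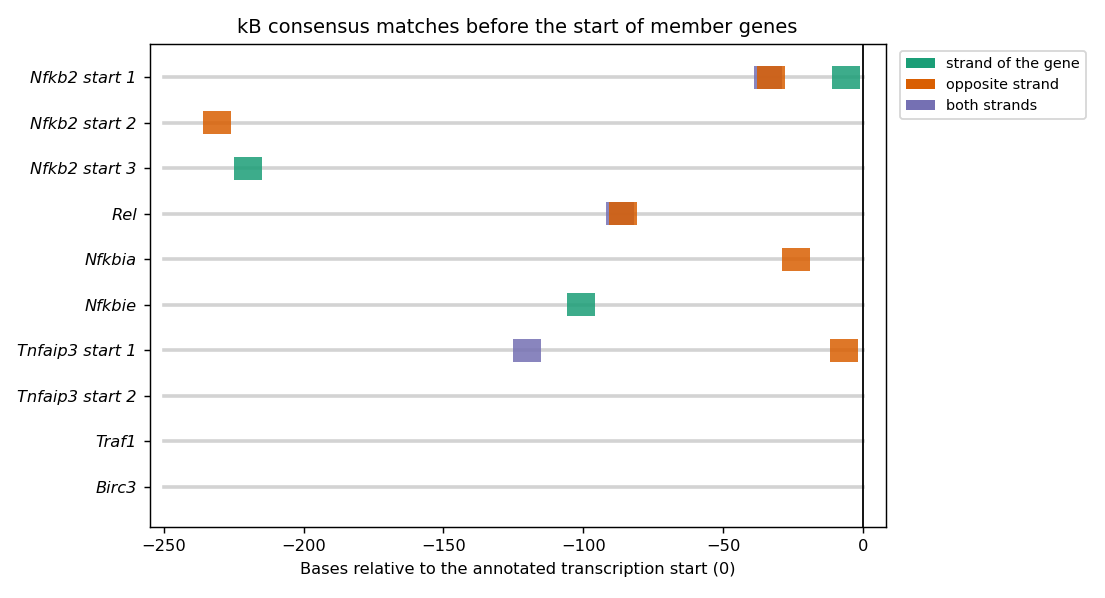
Positions of matches to the kB consensus in the 250 bases before each annotated start of 7 member genes, with bases relative to the start on the x axis and 1 line per start; colours give the strand. The matches of Nfkb2 start 1, Nfkbia and 1 of those of Tnfaip3 start 1 lie within 39 bases of the start.

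To set levels beside each other across genes, CPM was divided by the length in kb of the longest coding transcript. On this scale Nfkb1, which encodes a precursor of a DNA-binding subunit, and Nfkbia, which encodes the main inhibitor IkB alpha, were the highest in every group. At 24 h Nfkb1 came first, with 256 ± 8.16 CPM per kb with the shFabp7 partner and 226 ± 10.97 CPM per kb with the control partner (SD, n = 3), ahead of Nfkbia at 213 ± 2.81 and 193 ± 6.34 CPM per kb. At 48 h the order of these genes was the other way round with both partners, with Nfkbia at 237 ± 8.38 and 220 ± 7.61 CPM per kb in the shFabp7 and control groups and Nfkb1 at 207 ± 9.29 and 156 ± 12.8 CPM per kb, without overlap of the libraries. Nfkbiz and Nfkbie, which encode other IkB proteins, were the lowest in every group at 20.95 to 26.2 CPM per kb. Neighbours whose libraries overlapped included Relb and Traf1 with the shFabp7 partner at 24 h, and Traf1, Birc3 and Relb with the control partner at 24 h. Nfkb2, Traf1 and Tnfaip3 overlapped in turn with the shFabp7 partner at 48 h, as did Traf1 and Nfkb2 with the control partner at 48 h. Relb overlapped its next neighbour at 48 h in both groups, as did Nfkbie and Nfkbiz with the control partner at 48 h.

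**Figure D2:**
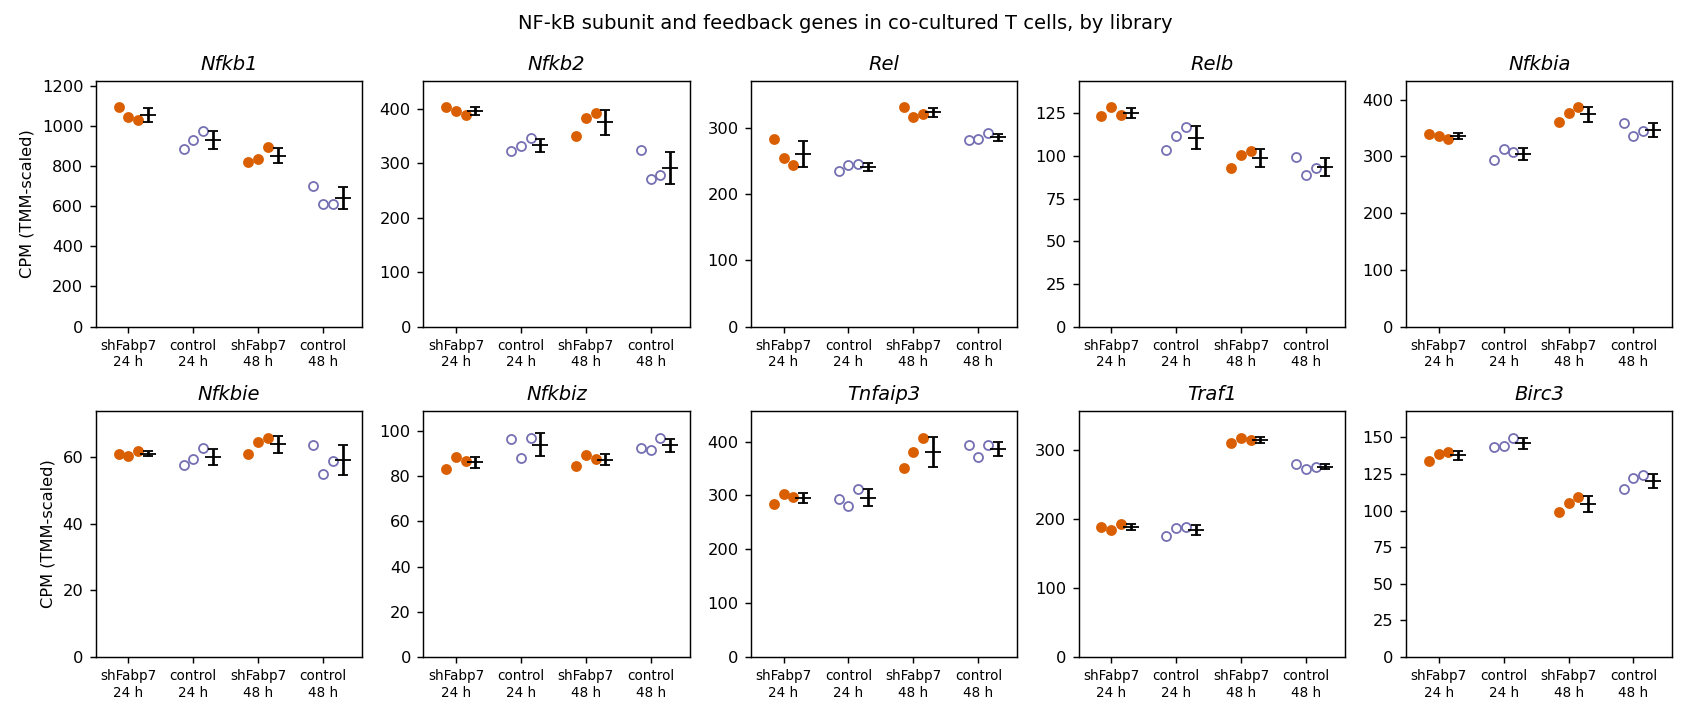
Level of each of the 10 genes in each of the 12 libraries, as TMM-scaled CPM on axes that start at 0; filled points are libraries of the shFabp7 partner, open points those of the control partner, and bars give the mean ± SD (n = 3). The groups stand apart for Nfkb1 and Nfkb2 at both times and for Traf1 at 48 h, while the Tnfaip3 libraries of the partners overlap.

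The main question of the design was which T cell genes differ with the partner. At 24 h, 3 of the 10 members, the subunit genes Nfkb1, Nfkb2 and Relb, were higher with the shFabp7 partner and none was lower, where 10.9% of all genes tested were called, 6.22% as higher and 4.65% as lower (edgeR's quasi-likelihood test, Benjamini-Hochberg adjusted p under 0.05). At 48 h, Nfkb1, Nfkb2, Rel and Traf1 were higher and Birc3 was lower, which is 5 of 10, where 31.6% of all genes were called, 19.9% as higher and 11.6% as lower. The shFabp7 and control libraries did not overlap in 5 members at 24 h and in 7 at 48 h, where 27.5% and 44.0% of all genes did not. The median log2 fold change of the members was 0.07 at 24 h and 0.11 at 48 h, beside -0.0041 and 0.01 over all genes. Of all called genes 57.2% were higher with the shFabp7 partner at 24 h and 63.2% at 48 h, and other scalings and DESeq2 moved that share to between 33.2% and 73.1% at 24 h and between 39.9% and 67.1% at 48 h. The sizes below are small, so a scaling is named beside a call that it ended.

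Nfkb1 had the largest partner effect of the members at 48 h. Its 48 h levels were 821, 838 and 894 CPM with the shFabp7 partner, against 702, 611 and 609 CPM with the control partner. Every shFabp7 library was above every control library, and the log2 fold change was 0.41 ± 0.06 (SE, adjusted p = 8.8e-07). At 24 h it was at 1093, 1045 and 1028 CPM with the shFabp7 partner, against 887, 928 and 977 CPM with the control partner. These libraries did not overlap either, with a log2 fold change of 0.18 ± 0.06 (adjusted p = 0.0345). The 24 h call was lost with upper-quartile scaling (adjusted p = 0.0687), with library totals as scaling (adjusted p = 0.104), when either control replicate 1 or shFabp7 replicate 1 was left out (adjusted p = 0.131 and 0.102). The 48 h call held under each scaling, DESeq2, both filters and every left-out library, and it was the only partner call of a member that held when the fold had to exceed 1.2 (adjusted p = 0.0311).

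Nfkb2, whose product is the precursor processed in the alternative NF-kB pathway, was higher at both times. Its 24 h levels were 403, 397 and 388 CPM with the shFabp7 partner, against 322, 332 and 346 CPM with the control partner. At 48 h it was at 350, 383 and 393 CPM with the shFabp7 partner, against 324, 271 and 278 CPM with the control partner. The groups did not overlap at either time, although control replicate 1 at 48 h was close to the lowest shFabp7 library. The log2 fold change was 0.25 ± 0.06 at 24 h (adjusted p = 0.00521) and 0.37 ± 0.06 at 48 h (adjusted p = 7.6e-06). Both calls held under each scaling, DESeq2, both filters and every left-out library. In the GRCm38 annotation the opposite strand of the Nfkb2 locus holds Psd, which had 21 to 116 counts in a library where Nfkb2 had at least 10471, and another gene, AC114539.1, which was not matched by name in the counts. On the strand of Nfkb1 lies Gm43430, with 77 to 237 counts.

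Relb, the partner subunit of processed Nfkb2, was called at 24 h and not at 48 h. Its 24 h levels were 123, 129 and 124 CPM with the shFabp7 partner, against 104, 112 and 117 CPM with the control partner, without overlap (log2 fold change 0.18 ± 0.06, adjusted p = 0.0344). The 48 h levels were 93.1, 101 and 103 CPM with the shFabp7 partner, against 99.6, 89.1 and 92.8 CPM with the control partner, and the groups overlapped (log2 fold change 0.08 ± 0.06, adjusted p = 0.321). The 24 h call was lost with upper-quartile scaling (adjusted p = 0.072), with library totals (adjusted p = 0.113), when either control replicate 1 or shFabp7 replicate 2 was left out (adjusted p = 0.16 and 0.0832).

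Rel, which encodes the subunit c-Rel that drives Il2 and other genes in activated T cells, was called at 48 h. Its 48 h levels were 332, 318 and 322 CPM with the shFabp7 partner, against 282, 283 and 292 CPM with the control partner. All shFabp7 libraries were above all control libraries (log2 fold change 0.18 ± 0.05, adjusted p = 0.00762). The call was lost with upper-quartile scaling (adjusted p = 0.179) and library totals (adjusted p = 0.165). At 24 h it was at 283, 255 and 244 CPM with the shFabp7 partner, against 235, 244 and 246 CPM with the control partner, where only shFabp7 replicate 1 stood clearly above the rest. That difference did not pass in edgeR (log2 fold change 0.11 ± 0.05, adjusted p = 0.185) and passed in DESeq2 (adjusted p = 0.0479).

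None of the 3 genes for IkB proteins passed in edgeR with the partner at either time, although 2 of them at 24 h and 1 at 48 h had an unadjusted p under 0.05, as had 4228 and 6821 of the 16945 genes tested. DESeq2 called 1 of the 3, Nfkbia, as higher at each time. Nfkbia, the classical rapid feedback gene, stood at 24 h at 340, 337 and 332 CPM with the shFabp7 partner, against 293, 313 and 307 CPM with the control partner. These libraries did not overlap, and the adjusted p was just above the threshold (log2 fold change 0.14 ± 0.05, adjusted p = 0.0554 in edgeR, 0.00325 in DESeq2). It passed as well with RLE scaling (adjusted p = 0.0226), with no filter on low counts (adjusted p = 0.0259) and without control replicate 2 or 3 (adjusted p = 0.0172 and 0.0452). At 48 h Nfkbia was at 360.4, 376 and 387 CPM with the shFabp7 partner, against 359.9, 336 and 344 CPM with the control partner, where the lowest shFabp7 library and the highest control library were almost level (log2 fold change 0.11 ± 0.05, adjusted p = 0.0858 in edgeR, 0.0262 in DESeq2). It passed at 48 h without control replicate 1 (adjusted p = 0.0227).

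Nfkbie and Nfkbiz differed less with the partner. Nfkbie, which encodes IkB epsilon, averaged 61.05 ± 0.777 CPM with the shFabp7 partner and 60.0 ± 2.48 CPM with the control partner at 24 h, and 63.8 ± 2.61 against 59.2 ± 4.47 CPM at 48 h (SD, n = 3). Its groups overlapped at both times (adjusted p = 0.835 and 0.157). It passed at 48 h without control replicate 1 (adjusted p = 0.026). Nfkbiz encodes the nuclear protein IkB zeta, which acts as a cofactor at a subset of NF-kB genes. It averaged 86.2 ± 2.59 CPM with the shFabp7 partner and 94.0 ± 5.05 CPM with the control partner at 24 h, and 87.4 ± 2.46 against 93.9 ± 2.95 CPM at 48 h. Its log2 fold changes were -0.12 ± 0.05 and -0.10 ± 0.05 (adjusted p = 0.131 and 0.139). With library totals it was called as lower at both times (adjusted p = 0.0383 and 0.00619), and with upper-quartile scaling at 48 h (adjusted p = 0.00573).

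Tnfaip3 encodes the ubiquitin-editing enzyme that shuts off signals to the IkB kinase. Its 24 h levels were 285, 303 and 297 CPM with the shFabp7 partner, against 294, 280.2 and 312 CPM with the control partner. At 48 h it was at 352, 381 and 408 CPM with the shFabp7 partner, against 393, 371 and 393 CPM with the control partner. The groups overlapped at both times, with log2 fold changes of -0.0025 ± 0.05 (adjusted p = 0.986) and -0.02 ± 0.05 (adjusted p = 0.816). No alternative called a partner effect on Tnfaip3.

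Traf1 and Birc3, which encode an adaptor and a ubiquitin ligase of the TNF receptor complexes, went in opposite directions at 48 h. At that time Traf1 was at 309, 318 and 315 CPM with the shFabp7 partner, against 279, 272 and 275 CPM with the control partner. The groups were well apart (log2 fold change 0.19 ± 0.05, adjusted p = 0.00232), and the call was lost with upper-quartile scaling (adjusted p = 0.0968) and library totals (adjusted p = 0.0822). Birc3 had 99.0, 105 and 109 CPM with the shFabp7 partner, against 115, 122 and 124 CPM with the control partner. It was the only member called as lower, without overlap of the libraries (log2 fold change -0.20 ± 0.05, adjusted p = 0.00218), and the call held under each scaling, DESeq2, both filters and every left-out library. At 24 h neither passed. Traf1 averaged 188 ± 4.82 CPM with the shFabp7 partner and 183 ± 7.42 CPM with the control partner at that time (adjusted p = 0.688), and Birc3 138 ± 3.15 and 146 ± 3.52 CPM (adjusted p = 0.328), with the Birc3 libraries not overlapping.

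**Figure D3:**
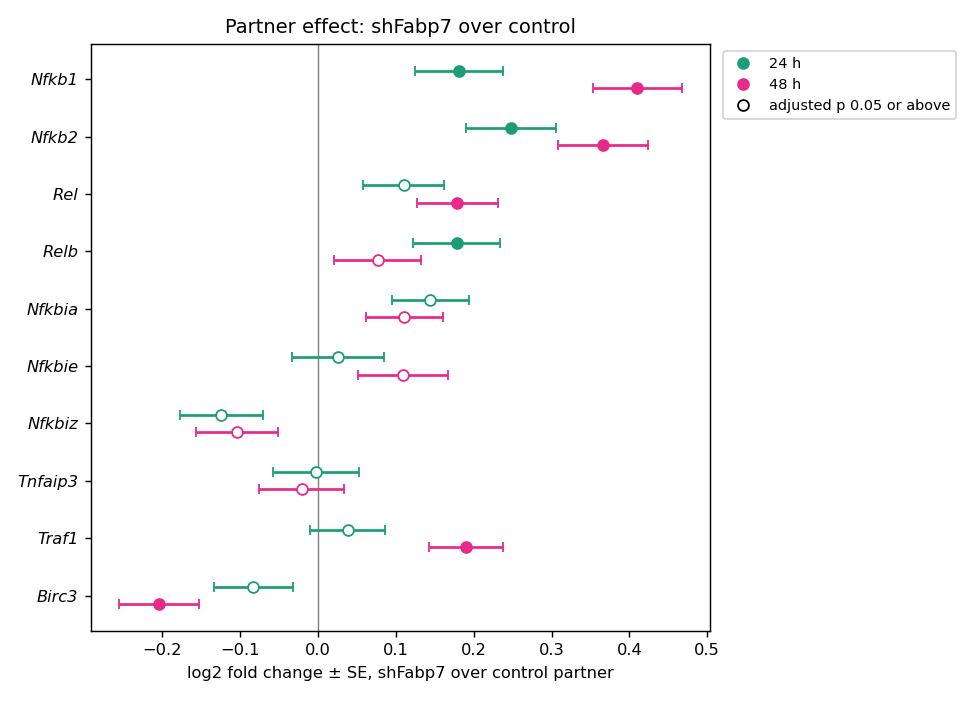
Log2 fold change ± SE of each member with the shFabp7 partner over the control partner (x axis) at 24 and 48 h; filled points passed an adjusted p of 0.05 in edgeR. The subunit genes Nfkb1 and Nfkb2 lie to the right at both times, and Birc3 lies to the left with its 48 h point filled.

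**Figure D4:**
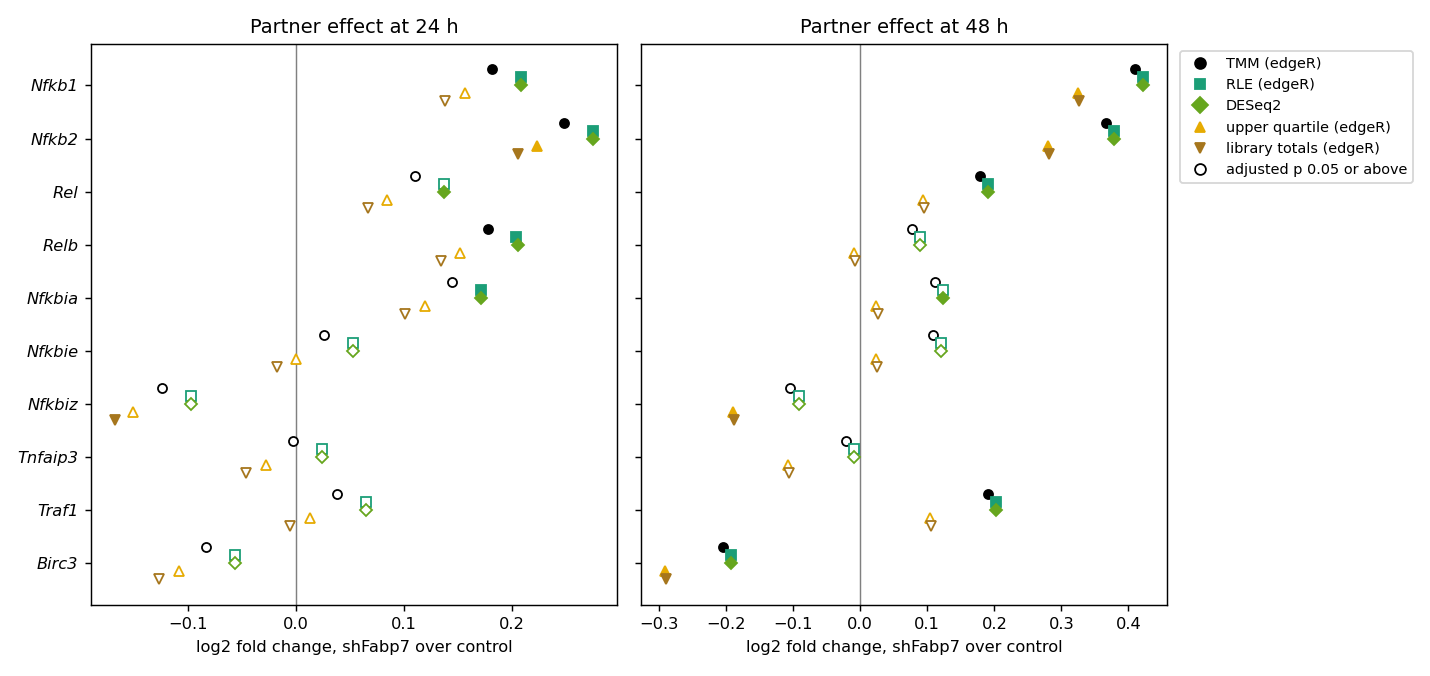
The same log2 fold changes with 3 other scalings and with DESeq2, at 24 h (left) and 48 h (right); filled symbols passed an adjusted p of 0.05. Nfkb2 at 24 h and Nfkb1, Nfkb2 and Birc3 at 48 h are filled in every version, while the points of Relb at 48 h and of Nfkbie, Tnfaip3 and Traf1 at 24 h fall on both sides of 0.

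Some markers of other cells moved with the partner at 24 h. The 8 dendritic cell genes summed to 159 to 178 CPM with the shFabp7 partner, against 221 to 272 CPM with the control partner. The chemokine gene Ccl22 alone was at 156 and 229 CPM, while Cd209a had no counts in any library and Clec9a had at most 2. Other genes of this list differed little at 24 h, with Flt3 at mean levels of 1.93 against 1.97 CPM. Zbtb46 was at 5.52 against 5.63 CPM and Itgax at 2.11 against 2.49 CPM, so the lower sum was that of Ccl22. The dendritic cell sums overlapped at 48 h (183 to 208 CPM with the shFabp7 partner and 176 to 219.5 CPM with the control partner). Of the dendritic cell genes 4 were tested, with 1 called as lower at 24 h and 0 at 48 h. For this and the lists below, 4.65% of all genes were lower at 24 h and 11.6% at 48 h. The B cell sums overlapped at both times, at 12.4 to 16.5 against 14.1 to 15.9 CPM at 24 h and 20.5 to 21.4 against 20.5 to 24.0 CPM at 48 h. The 8 neutrophil genes, with Retnlg at 0 everywhere, were at 2.72 to 3.72 against 4.09 to 5.83 CPM at 24 h and 2.73 to 4.19 against 4.89 to 7.33 CPM at 48 h. Of the neutrophil genes 5 were tested, with 1 called as lower at 24 h and 2 at 48 h. The 8 epithelial genes also had lower sums with the shFabp7 partner, at 10.0 to 10.7 against 11.3 to 12.4 CPM at 24 h and 4.75 to 6.20 against 7.07 to 7.69 CPM at 48 h. Of these genes 4 were tested, with 0 called at 24 h and 1 called as lower at 48 h. Single genes differed in direction at 24 h, with Cdh1 at mean levels of 4.90 against 6.35 CPM and Epcam at 4.58 against 4.17 CPM. The 8 monocyte and macrophage genes were at 9.77 to 10.8 against 11.6 to 13.3 CPM at 24 h and overlapped at 48 h. Of the monocyte and macrophage genes 5 were tested, with 0 called at 24 h and 1 called as lower at 48 h. The 8 stromal and endothelial genes were at 88.7 to 92.8 against 104 to 120.1 CPM at 24 h and 70.3 to 77.7 against 83.4 to 91.4 CPM at 48 h, with Pecam1 also expressed by leukocytes. Of the stromal and endothelial genes 6 were tested, with 1 called as lower at each time. The 6 NK cell genes overlapped at 24 h (147 to 175 against 159 to 171 CPM) and not at 48 h (151 to 154 against 158 to 171 CPM). Most of the 48 h sums was Eomes, at mean levels of 140 against 150 CPM. At 48 h Ncr1 was at 0.26 against 0.45 CPM and Klrb1c at 0.24 against 0.69 CPM. Of the NK cell genes 5 were tested, with 0 called at 24 h and 1 called as lower at 48 h. The T cell sums were at 2378 to 2515.1 against 2514.9 to 2541 CPM at 24 h and at 2330 to 2375 against 2241 to 2300 CPM at 48 h. At 48 h 1 of these 8 genes was called as higher and 4 as lower, where 19.9% of all genes were higher and 11.6% lower. The list median was -0.11 on the log2 scale, beside 0.01 over all genes. The higher one was Thy1, at mean levels of 797 and 639 CPM, and the lower ones were Cd3d, Cd3g, Cd8a and Cd8b1, with Cd8a at 138 and 161 CPM. At 24 h none of the 8 was called, where 10.9% of all genes were. The part of these marker levels in the member levels was not tested.

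Whether the partner effect itself differed between the times was tested by an interaction contrast. None of the 10 members passed in edgeR, where 5.60% of all genes were called (4.43% as higher, 1.17% as lower), and none in DESeq2, while the median of the members was 0.05 beside 0.04 over all genes. Of the members, 2, Nfkb1 and Traf1, had an unadjusted p under 0.05, as had 19.1% of all genes. The partner effect of Nfkb1 was larger at 48 h than at 24 h by 0.23 ± 0.08 on the log2 scale (adjusted p = 0.0903), and it passed without control replicate 1 at 48 h (difference 0.30, adjusted p = 0.00312). The difference was 0.15 ± 0.07 for Traf1 (adjusted p = 0.21), -0.12 ± 0.07 for Birc3 (adjusted p = 0.382) and -0.10 ± 0.08 for Relb (adjusted p = 0.54). The calls of Rel, Traf1 and Birc3 at 48 h alone, and of Relb at 24 h alone, are therefore not shown to differ between the times.

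Between 24 and 48 h most members moved, in both directions. At 48 h against 24 h, 7 of 10 passed with the shFabp7 partner and 8 of 10 with the control partner, where 66.1% and 67.7% of all genes did, so the share of members is near that of genes at large. With each partner 4 members were higher at 48 h, where 35.9% of all genes were with the shFabp7 partner and 35.8% with the control partner. The lower ones were 3 with the shFabp7 partner and 4 with the control partner, where 30.2% and 32.0% of all genes were lower. The members' median was 0.04 with the shFabp7 partner and -0.01 with the control partner, beside 0.06 and 0.04 over all genes. In 7 members with each partner the 48 h and 24 h libraries did not overlap, where 71.4% and 68.6% of all genes did not. All 8 T cell markers passed for time as well with each partner, 3 as higher and 5 as lower at 48 h. Cd8a was at mean levels of 138 CPM at 48 h and 336 CPM at 24 h with the shFabp7 partner, and 161 and 353 CPM with the control partner. Cd8b1 was lower likewise, at 91.7 and 166 CPM and at 100.5 and 175 CPM, while Cd4, Cd3g and Thy1 were higher. The part of these marker levels in the time effects was not tested. Traf1 had the largest rise of the members, with log2 fold changes of 0.74 ± 0.05 with the shFabp7 partner (adjusted p = 3.2e-15) and 0.59 ± 0.05 with the control partner (adjusted p = 9.7e-13). Its 48 h libraries, at 272 to 318 CPM over both partners, were all above the 24 h libraries, at 175 to 193 CPM. Tnfaip3 rose by 0.37 ± 0.05 with the shFabp7 partner and by 0.39 ± 0.05 with the control partner (adjusted p = 4.6e-07 and 1.7e-07), and Rel by 0.31 ± 0.05 and 0.24 ± 0.05 (adjusted p = 3.2e-06 and 1.2e-04). Nfkbia rose by 0.16 ± 0.05 and 0.19 ± 0.05 (adjusted p = 0.006 and 0.00107). The Nfkbia call with the shFabp7 partner was lost without shFabp7 replicate 2 or 3 at 24 h (adjusted p = 0.0617 and 0.0778).

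The members that fell over time were Nfkb1, Relb and Birc3 with both partners, and Nfkb2 with the control partner. Nfkb1 fell to 821 to 894 CPM at 48 h with the shFabp7 partner, against 1028 to 1093 CPM at 24 h (log2 fold change -0.31 ± 0.06, adjusted p = 1.3e-05). With the control partner it was at 609 to 702 CPM at 48 h, against 887 to 977 CPM at 24 h (log2 fold change -0.54 ± 0.06, adjusted p = 3.5e-10). Relb fell by 0.34 ± 0.06 with the shFabp7 partner and by 0.24 ± 0.06 with the control partner (adjusted p = 2.1e-06 and 3.0e-04). Birc3 fell by 0.40 ± 0.05 and 0.28 ± 0.05 on the log2 scale (adjusted p = 2.5e-08 and 1.3e-05), with no overlap between the times. With library totals as scaling, which put the median gene at 0.21 and 0.23 for time in place of 0.06 and 0.04, the control partner calls of Relb and Birc3 were lost (adjusted p = 0.423 and 0.127). Nfkb2 was called with the control partner (log2 fold change -0.20 ± 0.06, adjusted p = 0.00361), with overlap between the times. That call was lost with upper-quartile scaling (adjusted p = 0.145) and library totals (adjusted p = 0.923). With the shFabp7 partner it did not pass (log2 fold change -0.08 ± 0.06, adjusted p = 0.242) except when the 2 compared groups were fitted alone (-0.09, adjusted p = 0.0328). Nfkbie and Nfkbiz did not pass with either partner (adjusted p = 0.344 to 0.981). With library totals alone as scaling both were called as higher at 48 h with each partner (log2 fold change 0.17 to 0.21), a direction opposite to the TMM value with the control partner for both genes.

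**Figure D5:**
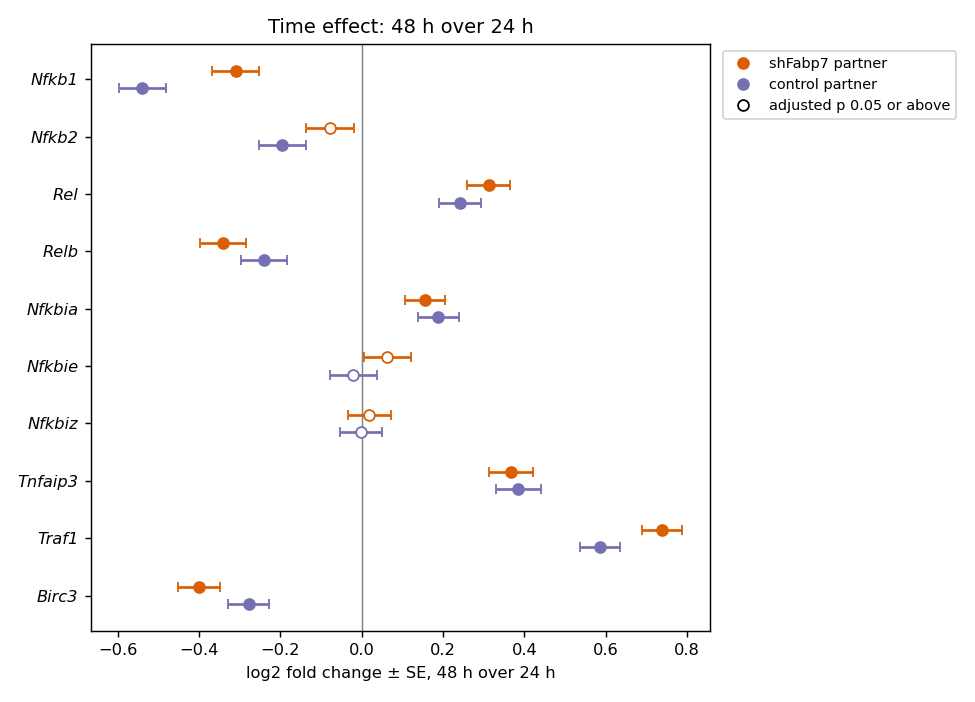
Log2 fold change ± SE of each member at 48 h over 24 h (x axis) with the shFabp7 and the control partner; filled points passed an adjusted p of 0.05 in edgeR. Traf1, Tnfaip3, Rel and Nfkbia lie to the right and Nfkb1, Relb and Birc3 to the left with both partners.

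Other genes of the pathway were counted in lists by role, and all genes of the lists given here were tested. In the core list, 3 of 7 were higher with the shFabp7 partner at 24 h, and 4 were higher and 1 lower at 48 h, with medians of 0.08 and 0.16 on the log2 scale. For this and the lists below, 6.22% of all genes were higher and 4.65% lower at 24 h, 19.9% were higher and 11.6% lower at 48 h, and the all-gene medians were -0.0041 and 0.01. Rela, the main activating subunit, was at 233 ± 4.71 CPM with the shFabp7 partner and 199 ± 16.6 CPM with the control partner at 24 h, a log2 fold change of 0.23 ± 0.06 (adjusted p = 0.00953). At 48 h Rela was at 151 ± 6.66 against 131 ± 9.90 CPM (0.21 ± 0.06, adjusted p = 0.00446). The 24 h call was lost without control replicate 1 (adjusted p = 0.0573) and the 48 h call with upper-quartile scaling and library totals (adjusted p = 0.092 and 0.0814). Nfkbid, an inducible nuclear IkB gene, was at 258 ± 6.34 against 213 ± 5.68 CPM at 24 h (adjusted p = 0.00227) and at 95.9 ± 4.78 against 72.4 ± 8.29 CPM at 48 h (log2 fold change 0.41 ± 0.06, adjusted p = 2.9e-06). Nfkbib, which encodes IkB beta, was higher at 24 and 48 h by 0.19 ± 0.05 and 0.36 ± 0.06 (adjusted p = 0.0239 and 4.1e-06), with the 24 h call lost with library totals (adjusted p = 0.0753) and when shFabp7 replicate 1 or control replicate 1 or 3 was left out (adjusted p = 0.0503 to 0.0609). Ikbkb, the gene of a catalytic subunit of the IkB kinase, was lower at 48 h (-0.19 ± 0.05, adjusted p = 0.005).

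In the TNF receptor arm none of 13 passed at 24 h in edgeR or in DESeq2 (1 with an unadjusted p under 0.05, as had 4228 of the 16945 genes tested), the nearest being Traf5 (-0.19 ± 0.06, adjusted p = 0.0503) and then Birc2 (-0.11 ± 0.06, adjusted p = 0.271). Traf5 was called as lower at 24 h with upper-quartile scaling, library totals, a stricter filter and without control replicate 2 (lowest adjusted p = 0.0156 in edgeR). At 48 h, 1 of the 13 was higher and 2 were lower, and the list medians were -0.03 at 24 h and 0.02 at 48 h. These 3 of 13 are no larger a share than the 31.6% of all genes called at 48 h. Birc2, the paralog of Birc3, was at 77.3 ± 2.79 CPM with the shFabp7 partner and 94.6 ± 8.58 CPM with the control partner (-0.29 ± 0.06, adjusted p = 2.97e-04), and since the genes are related, reads could have been shared between them. Ripk1, a kinase of the TNF receptor complex, was higher (0.20 ± 0.05, adjusted p = 0.00263, lost with upper-quartile scaling and library totals at adjusted p = 0.0834 and 0.0786), and the receptor gene Tnfrsf1b was lower (-0.14 ± 0.05, adjusted p = 0.0383, lost with RLE scaling at adjusted p = 0.0663, in DESeq2 at 0.0501, with the replicate number as a block at 0.0504, and without each of the 6 libraries other than control replicate 3 at 0.0537 to 0.147).

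Of 14 other genes that restrain NF-kB, 1 was higher and 3 were lower at 24 h, and 2 were higher and 4 lower at 48 h, beside 10.9% and 31.6% of all genes called in either direction, with medians of -0.01 and -0.0019. Otulin, which removes linear ubiquitin chains, was higher by 0.18 ± 0.06 at 24 h and by 0.31 ± 0.05 at 48 h (adjusted p = 0.0355 and 2.6e-05), and its 24 h call was lost with upper-quartile scaling, with library totals (adjusted p = 0.0741 and 0.123), and when shFabp7 replicate 2 or 3 or control replicate 1 or 3 was left out (adjusted p = 0.056 to 0.104). Nlrc5, which is also the transactivator of MHC class I genes, was lower, with log2 fold changes of -0.21 ± 0.05 and -0.39 ± 0.05 (adjusted p = 0.0109 and 1.2e-06), with the 24 h call lost when shFabp7 replicate 1 or 2 or control replicate 1 was left out (adjusted p = 0.0621 to 0.14). Nlrc3 was lower as well, at -0.30 ± 0.06 and -0.25 ± 0.06 (adjusted p = 0.00275 and 0.00253). N4bp1 was lower at 48 h (-0.21 ± 0.05, adjusted p = 0.00216), and the deubiquitinase gene Cyld at 24 and 48 h (-0.18 ± 0.05 and -0.14 ± 0.05, adjusted p = 0.0196 and 0.0272). The 24 h call of Cyld was lost with no filter on low counts (adjusted p = 0.0693) and without each library other than control replicate 2 (adjusted p = 0.0634 to 0.137), and the 48 h call when shFabp7 replicate 1 or 2 or control replicate 2 or 3 was left out (adjusted p = 0.0891 to 0.135).

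Of 19 genes that NF-kB is known to induce in lymphocytes, 8 were higher and 1 lower with the shFabp7 partner at 24 h, and 15 were higher and 1 lower at 48 h, where 6.22% and 19.9% of all genes were higher and 4.65% and 11.6% lower. The list medians were 0.19 and 0.36 on the log2 scale, and the genes were chosen with earlier results of these data known. Ccl3, a chemokine gene, was at 155 ± 3.39 CPM with the shFabp7 partner and 116 ± 13.4 CPM with the control partner at 24 h, and at 168 ± 4.31 against 89.4 ± 6.98 CPM at 48 h (log2 fold change 0.91 ± 0.06, adjusted p = 1.7e-11). The gene that was lower was Irf1, a transcription factor gene also induced by interferon (log2 fold change -0.20 ± 0.06 and -0.31 ± 0.06, adjusted p = 0.0166 and 5.05e-05), named after its values were seen. Its 24 h call was lost when shFabp7 replicate 1 or 2 or control replicate 1 was left out (adjusted p = 0.124 to 0.152). Csf2, a growth factor for myeloid cells, was at 72.1 ± 3.79 against 45.9 ± 3.81 CPM at 48 h, and Il2ra, a subunit of the IL-2 receptor, at 995 ± 27.1 against 725 ± 18.96 CPM. Gadd45b, a stress response gene, Cd83, an activation marker, and Bcl2l1, a survival gene, were higher at 24 h by 0.37 ± 0.06, 0.32 ± 0.06 and 0.28 ± 0.05 (adjusted p = 9.7e-05, 8.2e-04 and 8.9e-04).

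The genes most like each member were sought among 8807 genes with a mean of at least 10 CPM, by the root mean square difference of log2 CPM, centred on each gene's mean, over the 12 libraries. None of the nearest 2 genes of any member was another member, which among 8807 genes does not show that the members lack a shared pattern. Nfkb1 was followed closest by Sec31a, at a difference of 0.03 where the profile of Nfkb1 itself had a root mean square of 0.27. Relb was followed closest by the immediate early gene Egr1 (0.03, against 0.17 for Relb), and Traf1 by Nde1 (0.04, against 0.34 for Traf1). Nfkbie and Nfkbiz had profiles of 0.07 themselves, so their nearest genes, Midn and Vgll4, differ little from any gene that hardly varies.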

How the data were processed

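RNA sequencing counts of co-cultured mouse T cells (4 groups of 3 libraries, grouped by the sample titles) were analysed. The authors deposited raw read counts per gene symbol, one column per library and not normalized. The submitters' processing notes name HTSeq 0.6.1p1, TopHat2 2.0.13, CASAVA 1.8.2 and the build GRCm39. Settings, strand mode and annotation are not stated there or in the labels. Reads from overlapping, antisense or near-identical genes could thus have been mixed or dropped.

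From these counts, genes were kept with filterByExpr by group (minimum count 10, minimum total 15), scaled by TMM and tested with edgeR 4.0.16 (robust quasi-likelihood, 1 fit of all 12 libraries, R 4.3.3), and p-values were adjusted by Benjamini-Hochberg over 16945 genes. Fold changes are log2 ± SE and levels CPM ± SD. The 5 comparisons were the partner at each time, their difference, and time with each partner. DESeq2 1.42.0, other scalings and filters, a replicate block, a minimum fold of 1.2 (glmTreat), the compared groups alone and each library left out were alternatives. The procedure was also run on counts simulated from its own fitted model, which cannot show how far the calls depend on the scaling. All 10 members are named, and up to 4 called genes per list and partner comparison, or the 2 with the smallest p. Irf1, and Cyld at 48 h, were named outside this rule after their values were seen. A gene that this rule selects, and the list that holds it, are not reported here. Members and lists were chosen with earlier results of these data known. GENCODE M21 and RefSeq tables are of GRCm38 and served for lengths, overlaps and promoters only.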

Additional observations from a re-analysis of the deposited data

Results flagged for a closer look

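In 6 of the 19 NF-kB induced genes the partner effect differed between the times by the interaction test in edgeR, all with a more positive effect at 48 h, where 5.60% of all genes were called and 4.43% in that direction. These 19 genes were chosen with earlier results of these data known, so their share is a description only. Of the 6, 3 are named by the rule for named genes. The effect at 48 h exceeded that at 24 h by 0.50 ± 0.09 on the log2 scale in Ccl3 (adjusted p = 9.8e-04), by 0.41 ± 0.10 in Ccl4 (adjusted p = 0.0175) and by 0.34 ± 0.08 in Il2ra (adjusted p = 0.00751). Ccl4, a chemokine gene, was at 74.7 ± 4.46 CPM with the shFabp7 partner and 46.6 ± 4.72 CPM with the control partner at 48 h, and at 132 ± 3.31 against 109 ± 12.9 CPM at 24 h. The Ccl4 call was lost without shFabp7 replicate 3 or control replicate 2 or 3 at 48 h, and without shFabp7 replicate 1, 2 or 3 or control replicate 2 at 24 h (adjusted p = 0.0545 to 0.127). The Il2ra call was lost without shFabp7 replicate 2 or 3 or control replicate 3 at 24 h (adjusted p = 0.0783 to 0.107), while the Ccl3 call held without each library in turn. None of the 10 subunit and feedback genes passed that test with all libraries, and groups of 3 libraries were not screened for outlying libraries. Control replicate 1 at 48 h had a chi-square per degree of freedom of 13.4 and 13.9 against replicates 2 and 3. Between replicates 2 and 3 it was 5.32, and in the control group at 24 h it was 7.23 to 12.8. Without control replicate 1 at 48 h, Nfkb1 passed and 1680 genes were called, against 949 with all libraries.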

How the results depend on the processing

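The small sizes are the main limit: when the fold had to exceed 1.2, 0 members were called with the partner at 24 h (3 without that condition), 1 at 48 h (5), and 3 for time with the shFabp7 partner (7) and 3 with the control partner (8). Under the same condition 14, 1005 and 13 genes in all were called for the partner at 24 h, at 48 h and for their difference, where 1842, 5352 and 949 were called without it. For time, 8142 of the 16945 genes were called under it with the shFabp7 partner and 8493 with the control partner. Without it 11207 and 11478 were called, so for time the members lost more of their calls than genes at large. At 24 h, upper-quartile scaling called 1 member and DESeq2 5, where 1788 and 2533 genes in all were called. Leaving out 1 library gave 1 to 4 members and 949 to 2525 genes for the partner at 24 h, and 0 to 1 members and 319 to 1680 genes for the difference between the times. With the replicate number as a block, 3, 5 and 0 members were called for the partner at 24 h, at 48 h and their difference, and 1777, 5195 and 862 genes, and the block changed no call of a member. The numbers were not taken to pair the samples, since same-numbered libraries had correlations of -0.067 to 0.0363 and the labels state no pairing. Members with values near 0 changed sign. Tnfaip3 with the partner at 24 h was 0.0247 with RLE scaling and DESeq2, 0.0218 with no filter and -0.0164 to 0.0593 without 1 library, and at 48 h -0.0714 to 0.0325 without 1 library. Its difference between the times was -0.109 to 0.0345 without 1 library, and that of Rel -0.0227 to 0.0853. Relb at 48 h was -0.0099 with upper-quartile scaling and -0.0077 with library totals, which also gave -0.0176 for Nfkbie and -0.0052 for Traf1 at 24 h. The difference of Nfkbiz was -0.0404 with upper-quartile scaling, -0.0207 with library totals, -0.0203 with no filter and -0.0538 to 0.0468 without 1 library. For time with the shFabp7 partner, Nfkbiz was -0.018 with RLE scaling and DESeq2, -0.0132 with no filter and -0.0356 to 0.0395 without 1 library, and Nfkb2 was 0.0704 with library totals. For time with the control partner, Nfkbie was 0.081 with upper-quartile scaling, 0.169 with library totals, 0.00874 with a stricter filter and -0.0764 to 0.0314 without 1 library. Nfkbiz was there 0.0996, 0.188 and 0.0271 under the same settings, 0.00709 with no filter and -0.0295 to 0.042 without 1 library. Apart from those scalings and filters, the cause was not tested.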
